A study of Mus musculus with 2 samples.

Results

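The genes described here are 40 mouse genes that encode the contractile apparatus of striated (skeletal and cardiac) muscle, out of 21486 protein-coding genes that could be placed on the genome. They were listed by name: 7 myosin heavy chains, 5 myosin light chains, 4 actin and tropomyosin genes, 8 troponin subunits, 11 Z disc and scaffold proteins, 3 metabolic and chaperone proteins, and the myogenic factors Myog (myogenin) and Myod1 (MyoD). The question was which of these classical muscle targets of MEF2 carry MEF2A in a B cell. Chromatin immunoprecipitation with an antibody to MEF2A, followed by sequencing (ChIP-seq), was done in CH12.LX, an immortalized B-cell lymphoma line from a female mouse of strain B10.H-2aH-4bp/Wts. There were 2 biological replicates from separate biosamples and 1 group, with no treatment and no second condition. The cells are a single transformed line and no muscle cell was assayed, so binding here cannot be set against binding in muscle, and replicates that share a line give the spread between cultures only.

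MEF2A belongs to the MADS-box family of transcription factors. MEF2 proteins bind an AT-rich element as dimers, and in skeletal and cardiac muscle they act with other factors, in skeletal muscle with MyoD and myogenin, at promoters and enhancers of sarcomere genes. MEF2 proteins are also expressed in lymphocytes and neurons, where they bind other sets of genes. In the sarcomere, myosin forms the thick filament and pulls on actin, and troponin and tropomyosin on the thin filament make that pull depend on calcium. Titin, nebulin, myomesins and myosin-binding proteins C hold the filaments in register.

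The main list was the authors' optimal set from an irreproducible discovery rate (IDR) analysis, a method that retains peaks with similar ranks in repeated calls. It listed 31497 mm10 peaks, whose signal ran between 6.41 and 535 around a median of 34.9. Signal means the value the authors gave a peak; it served here for ranking inside a single list, with rank 1 the strongest. A separate mm9 list held 16839 peaks. A gene was counted as having a peak when a summit lay within 10 kb of one of its transcription start sites (TSSs) or inside the gene. These are peak lists, so read depth is unknown and nothing is known of expression. The 7 B cell marker genes reported here, Cd79a, Cd79b, Ms4a1, Pax5, Ebf1, Cd22 and Blnk, each had a peak, against 50.2% of all protein-coding genes, with the strongest signal per gene between 63.0 (Cd79a) and 226 (Ebf1). That Cd79a peak was nearest to the TSS of another gene, and that Ebf1 peak lay 158967 bp downstream of the nearest Ebf1 TSS.

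The MEF2 element was searched on either strand as C or T, then TA, 4 bases that are each A or T, TA, and A or G. Sequence at the peaks was read from mm9 (NCBIM37), plus strand. The 3 elements that lay inside any mm9 peak of a muscle gene are shown first, since they are the only places where a peak and this form of the element coincided. They lay in an intron of Neb at chr2:52174659-52174668, near a Tnni2 start site at chr7:149628102-149628111, and upstream of Mybpc2 within the neighbouring gene Spib at chr7:51785925-51785934. Capitals mark the element, with 20 bases on each side.
Neb: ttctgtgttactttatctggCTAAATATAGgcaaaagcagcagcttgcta
Tnni2: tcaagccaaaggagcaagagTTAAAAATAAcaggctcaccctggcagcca
Mybpc2: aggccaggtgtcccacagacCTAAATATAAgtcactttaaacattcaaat

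The second set shows elements close to the start sites of muscle genes with no peak in either build. They lay 47 bp upstream of Myom2 (chr8:15057601-15057610), 85 bp upstream of Mybpc3 (chr2:90958211-90958220), 21 bp upstream of Myl2 (chr5:122550934-122550943) and 149 bp upstream of Myl1 (chr1:66982072-66982081). The last line is the element 1072 bp upstream of Ckm (chr7:19995366-19995375), in the region of the well-studied upstream muscle enhancer of that gene. Ckm had weak peaks on mm10 and none on mm9. Capitals again mark the element.
Myom2: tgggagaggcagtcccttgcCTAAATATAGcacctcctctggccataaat
Mybpc3: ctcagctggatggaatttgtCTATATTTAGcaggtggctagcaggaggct
Myl2: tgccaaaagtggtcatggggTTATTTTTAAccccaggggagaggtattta
Myl1: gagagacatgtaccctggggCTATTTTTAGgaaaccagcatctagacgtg
Ckm: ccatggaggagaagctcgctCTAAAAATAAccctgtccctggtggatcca

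An optimal peak was found at 19 of the 40 muscle genes (47.5%, 95% Wilson interval 32.9 to 62.5%), against 50.2% of all protein-coding genes. The interval here and below covers counting error over genes only. On mm9 the count was 15 of 40 (37.5%, interval 24.2 to 53.0%), against 33.4% of 22238 genes. Both shares lie near the background, so the count by itself is no result about muscle genes. What the list shows is which genes hold peaks, how strong these are, and whose start site they lie closest to.

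All 15 genes with an mm9 peak also had an optimal peak on mm10, which is 78.9% of the 19. Tnnc2, Tnni1, Ckm and Myod1 had a peak on mm10 only, and 21 genes had none on either build. The same 15 genes were found in the optimal set, the conservative set, the strongest 31497 intervals of each replicate and the mm9 list. The matching shares over all genes are not given here, so these overlaps are no result about muscle genes. The conservative IDR set, the stricter of the IDR sets, gave 18 of 40 (45.0%), against 47.1% of all genes: Ckm and Tnni1 were lost and Ldb3 was gained. Counting summits within 10 kb of a TSS alone, without the gene body, gave 15 of 40 (37.5%), against 43.9% of all genes. When only the stronger 50% of optimal peaks were used, 15 of 40 genes (37.5%) had a peak, against 32.6% of all genes.

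By protein class, troponin genes had an optimal peak in 7 of 8 cases, with Tnni3 the exception, against 50.2% of all genes. On mm9 it was 5 of 8, against 33.4% of all genes, and in the stronger 50% of optimal peaks it was 4 of 8 (Tnni2, Tnnt1, Tnnt2 and Tnnt3), against 32.6%. None of the peaks of Tnnc1, Tnnc2 and Tnnt1 was nearest to the TSS of the troponin gene. Among myosin heavy chains it was 1 of 7 (Myh2), among light chains 1 of 5 (Myl4), and among actin and tropomyosin genes 1 of 4 (Tpm1). Z disc and scaffold genes had a peak in 5 of 11 cases (Ttn, Neb, Myom1, Mybpc1 and Mybpc2), the metabolic and chaperone genes in 2 of 3 (Hspb7 and Ckm), and both myogenic factors had peaks. These classes are small and their members share loci, so the differences between them were not tested.

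**Figure D1:**
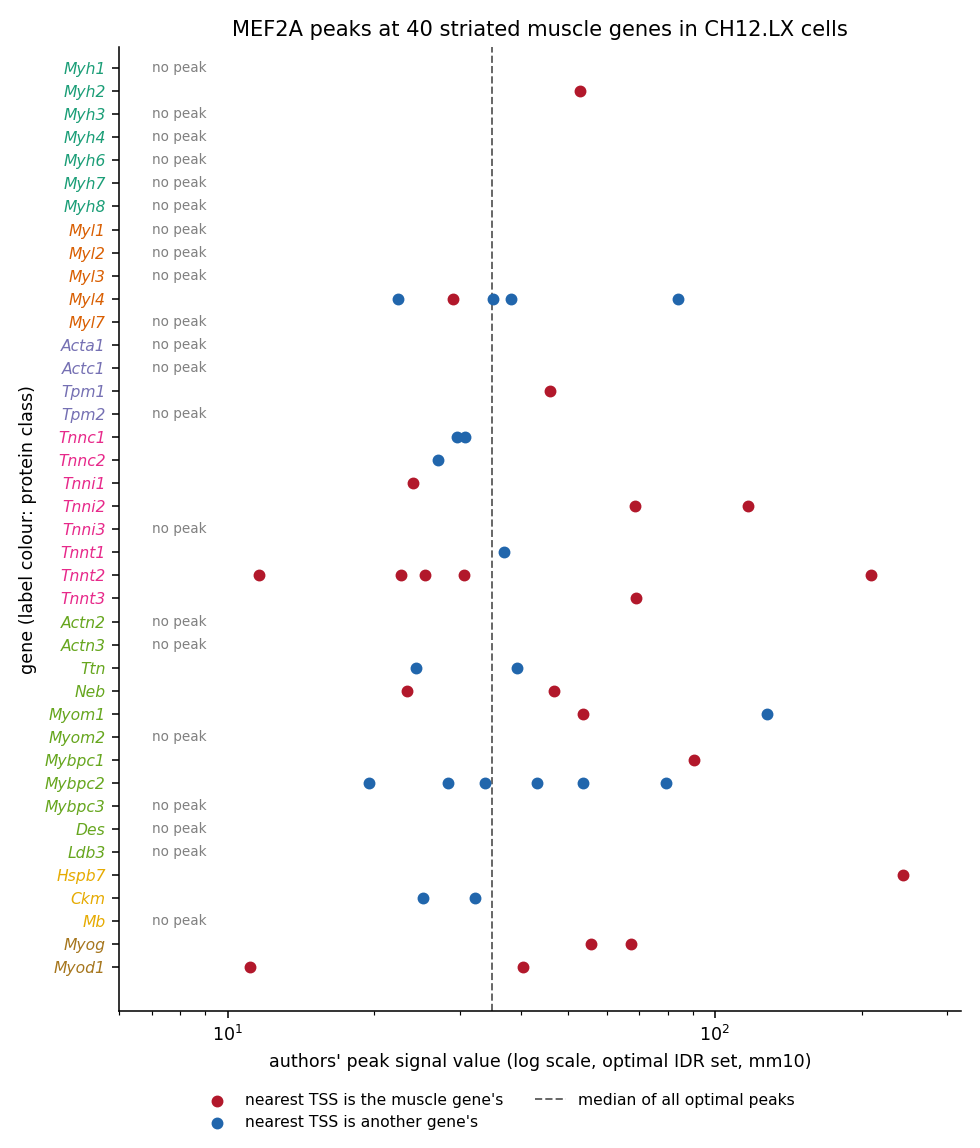
Authors' signal of each optimal MEF2A peak (horizontal, log scale) at each of the 40 muscle genes (vertical, label colour by protein class). Red points are peaks whose nearest TSS is that of the muscle gene, blue points are nearest to another gene, and the dashed line is the median of all optimal peaks, 34.9; Hspb7 (243) and Tnnt2 (209) stand furthest to the right and 21 genes have no peak.

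The 19 genes shared out 40 peaks, with 1 peak at 8 genes, several at 11, and at most 6 (Mybpc2). Their median signal was 37.5, against 34.9 over all optimal peaks, with a range of 11.1 to 243. Of the 40 peaks, 22 were in the stronger 50% of the optimal set, 5 (12.5%) in the top 10%, and 2 in the top 2%. In 2 places neighbouring optimal intervals overlap and share a replicate interval, at Tnnt2 and at Myod1, so these pairs may each be a single site. By mm10 start sites, 28 peaks were within 10 kb of a TSS of the muscle gene and 3 within 1 kb, and 23 were inside the muscle gene. For 5 peaks the nearest TSS was another gene's and within 1 kb, a Myl4 peak being in both 1 kb counts. The same shares over all optimal peaks are not given here. The 12 beyond 10 kb counted because they were in the gene body.

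The troponin genes, whose products switch the thin filament on with calcium, had 13 peaks with signals of 11.6 to 209. Tnnt2, cardiac troponin T, had the strongest of them, at chr1:135844014-135844208 on mm10, 7122 bp downstream of a TSS inside the gene. Its signal was 209 and its rank 505, in the top 1.6% of optimal peaks. In the replicates this site ranked 525 with a signal of 79.7 in replicate 1 and 530 with a signal of 130 in replicate 2, so it was strong in both. On mm9 it was an intronic peak of rank 535. The other 4 Tnnt2 peaks were weaker, with signals of 30.6, 25.4, 22.7 and 11.6.

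The fast skeletal troponin genes Tnni2 and Tnnt3 lie near each other on chromosome 7. Tnni2, the inhibitory subunit, had a peak with a signal of 117 and rank 1910 at chr7:142442201-142442356, 465 bp downstream of its TSS. Replicate 1 ranked it 948 (signal 62.4) and replicate 2 ranked it 3342 (signal 56.9), so it was present near the top of both lists. A second Tnni2 peak of signal 68.4 lay 1041 bp downstream of the TSS, at rank 16707 in replicate 1 and 3604 in replicate 2. Tnnt3, fast troponin T, had a peak of signal 68.9 at chr7:142500012-142500371, 1421 bp downstream of its TSS, at rank 3552 in replicate 1 and 7654 in replicate 2. Between them lies Lsp1, a leukocyte actin-binding protein gene (chr7:142458223-142494868), which was looked up after the values were seen; it had 6 optimal peaks of its own with a strongest signal of 144, and shared none with a muscle gene.

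The remaining troponin peaks were weaker and mostly nearest to another gene. Tnnt1, slow troponin T, had a peak of signal 36.9 at rank 14494, 11047 bp downstream of its TSS and 1165 bp upstream of Ppp1r12c, a myosin phosphatase regulatory subunit gene. Tnnc1, slow and cardiac troponin C, had peaks of 30.7 and 29.6, the stronger 18 bp upstream of Sema3g, a semaphorin gene. The single Tnnc2 peak (27.0) lay 34 bp downstream of the TSS of Snx21, a sorting nexin gene. The Tnni1 peak (24.0) lay 5885 bp downstream of its own TSS, ranking 171927 in replicate 1 and 31547 in replicate 2, so the interval of replicate 1 at this site was among its weak ones.

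Among motor and thin-filament genes, Myh2 (fast IIa myosin) was the single heavy chain with a peak. It had a signal of 52.9 and rank 8045 at chr11:67172426-67172785, 1579 bp into the gene, with rank 8673 in replicate 1 and 8515 in replicate 2. The neighbouring fast genes Myh1 and Myh4, the perinatal gene Myh8, the embryonic gene Myh3 and the cardiac genes Myh6 and Myh7 had none. Tpm1, alpha tropomyosin, which is also made outside striated muscle, had a peak of signal 45.9 at chr9:67043861-67044220, 5172 bp downstream of the nearest mm10 TSS. With the more numerous mm9 start sites the Tpm1 peak lay 78 bp upstream of a TSS. The striated actins Acta1 and Actc1 and the tropomyosin Tpm2 had none.

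Myl4, the atrial and embryonic light chain, had 5 peaks in 2 clusters. The strongest (84.1, rank 3564) lay at chr11:104582661-104583020, inside the gene and 32178 bp downstream of the nearest Myl4 TSS on mm10. This peak ranked 3290 in replicate 1 and 4849 in replicate 2. Its nearest mm10 TSS was that of Itgb3, an integrin gene, 25159 bp away, while on mm9 the peak lay 2123 bp upstream of an internal Myl4 TSS. The peaks of 38.1 and 22.4 in the same cluster were within 1.5 kb of it. At the Myl4 promoter, peaks of 35.1 and 29.0 lay 423 bp upstream and 288 bp downstream of the TSS; the stronger was 380 bp downstream of Cdc27, a divergent cell cycle gene.

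The Z disc and scaffold genes had 13 peaks, with signals of 19.5 to 128. The strongest (rank 1603, chr17:70993491-70993850) counted for Myom1, an M-band protein, since it lay 9661 bp upstream of its TSS. It was however 3155 bp upstream of Myl12b, a non-muscle myosin regulatory light chain gene, and just inside the end of the 10 kb window. It ranked 2473 in replicate 1 and 1400 in replicate 2. A second Myom1 peak (53.6) lay inside the gene, 71599 bp downstream of the nearest Myom1 TSS, and mm9 had the corresponding intronic peak at rank 8757.

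Mybpc1, slow myosin-binding protein C, had a single peak of signal 90.8 and rank 3134 at chr10:88584448-88584807, inside the gene and 20524 bp downstream of its nearest TSS. It ranked 4101 in replicate 1 and 3244 in replicate 2, and no other gene had a TSS within 50 kb of it. Mybpc2, the fast form, had 6 peaks of 19.5 to 79.4, of which 5 were nearest to Spib, which encodes an Ets-family factor of B cells and plasmacytoid dendritic cells. The strongest of these lay 6731 bp upstream of the Mybpc2 TSS and 625 bp downstream of the Spib TSS. The sixth was inside Mybpc2 and ranked 99642 in replicate 1 and 17392 in replicate 2.

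The giant genes had peaks far inside the gene body. Neb, nebulin, which sets thin-filament length, had peaks of 46.8 and 23.3, at 19610 and 23681 bp from its TSS. The stronger ranked 11857 in replicate 1 and 10002 in replicate 2, and the weaker ranked 215188 in replicate 1 and 20706 in replicate 2. Ttn, titin, had peaks of 39.3 and 24.4, at 161886 and 176131 bp from its nearest mm10 TSS. The stronger Ttn peak ranked 33234 in replicate 1 and 8026 in replicate 2. With the more numerous mm9 start sites, the mm9 Ttn peak lay 5883 bp downstream of a Ttn TSS, the nearest to it. Over all genes the share with a peak was 26.8% in the shortest 20% of genes, then 46.2, 53.0 and 59.1%, and 65.8% in the longest. The cause of this rise with gene length was not tested. The muscle genes with a peak were 5 of 7, 3 of 8, 3 of 11, 4 of 7 and 4 of 7 over the same length classes.

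Hspb7, a small heat shock protein of heart and muscle, had the strongest peak of all 40. It lay at chr4:141425763-141425967, 5096 bp downstream of the TSS and just past the end of the gene, with a signal of 243 and rank 343, in the top 1.09%. Replicate 1 ranked it 471 with a signal of 83.4 and replicate 2 ranked it 286 with a signal of 157, and mm9 ranked it 370. Ckm, muscle creatine kinase, had weak peaks of 32.2 and 25.2 at 5534 and 6919 bp upstream, both nearest to Klc3, a kinesin light chain gene. Mb, myoglobin, had none.

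The myogenic factors, which are themselves MEF2 partners and in the case of Myog a well-known MEF2 target, had 4 peaks, all nearest to their own TSS. Those of Myog were 67.4 and 55.8 in signal, at chr1:134283184-134283543 and chr1:134285503-134285862, 6640 and 4321 bp upstream. They ranked 6905 and 9707 in replicate 1, and 4322 and 7088 in replicate 2, and both were also called on mm9. Myod1 had an overlapping pair of 40.4 and 11.1 at 2790 and 3001 bp downstream, with 1 replicate interval behind both, at rank 10961 in replicate 1 and 15304 in replicate 2. The related factors Myf5 and Myf6 had no optimal peak.

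**Figure D2:**
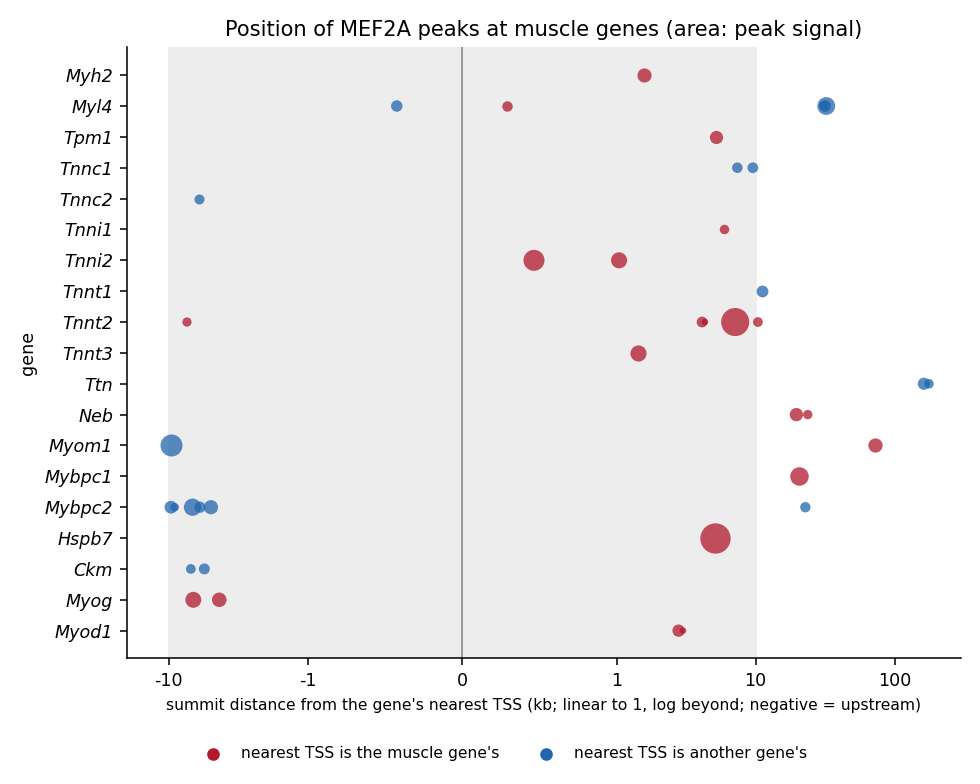
Distance of each optimal peak summit from the nearest TSS of the muscle gene it counts for (horizontal, kb, linear to 1 kb and log beyond, upstream negative), for the 19 genes with a peak; point area is proportional to signal and the grey band is the 10 kb window. Of the 40 peaks 12 lie beyond the band, inside the gene, and blue points, nearest to another gene's TSS, make up 19.

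By the rule that a peak belongs to its nearest TSS at any distance, 17 of the 40 muscle genes had a peak, against 49.4% of all genes. Among the peaks within the window or the gene, the nearest TSS was that of the muscle gene for 21 of its 40 peaks (52.5%), against 74.6% of 27566 pairs of a gene and a peak over all genes. The other 19 peaks were nearest to Spib (5), Itgb3 (3), Klc3, Plekha3 and Sema3g (2 each), and to Cdc27, Fam71e1, Myl12b, Ppp1r12c and Snx21 (1 each). None of these 10 genes is on the muscle list. Of the 19 muscle genes, 13 had at least 1 peak nearest to their own TSS on mm10, while Tnnc1, Tnnc2, Tnnt1, Ttn, Mybpc2 and Ckm had none. For 11 genes the strongest peak was nearer to their own TSS than to that of another gene. Within 1 kb of the TSS of the other gene that was nearest lay 5 of the peaks, at Cdc27, Sema3g, Snx21, Spib and Klc3. On mm9, with more start sites per gene, 16 of 24 peaks were nearest to the muscle gene, among them the Ttn peak.

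The replicates were compared by overlap of at least 1 bp with the strongest 31497 intervals of each. Of the 40 peaks, 28 (70.0%) matched in both, against 64.6% of all optimal peaks, a share near the background. The strongest peaks of Hspb7, Tnnt2, Tnni2, Myom1 and Mybpc1 ranked 4101 or better in replicate 1 and 3342 or better in replicate 2. At the other end, the weaker peaks of Tnni1, Tnnt2, Neb and Myl4 ranked from 171927 to 215188 in replicate 1, although between 20256 and 35863 in replicate 2. In all 32 of the 40 peaks overlapped the conservative set, which holds 28217 peaks against the 31497 of the optimal set. The share of all optimal peaks that overlap it is not given here. The 8 muscle gene peaks that did not overlap it came from Myl4, Tnni1, Tnnt2, Neb, Mybpc2 and Ckm.

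**Figure D3:**
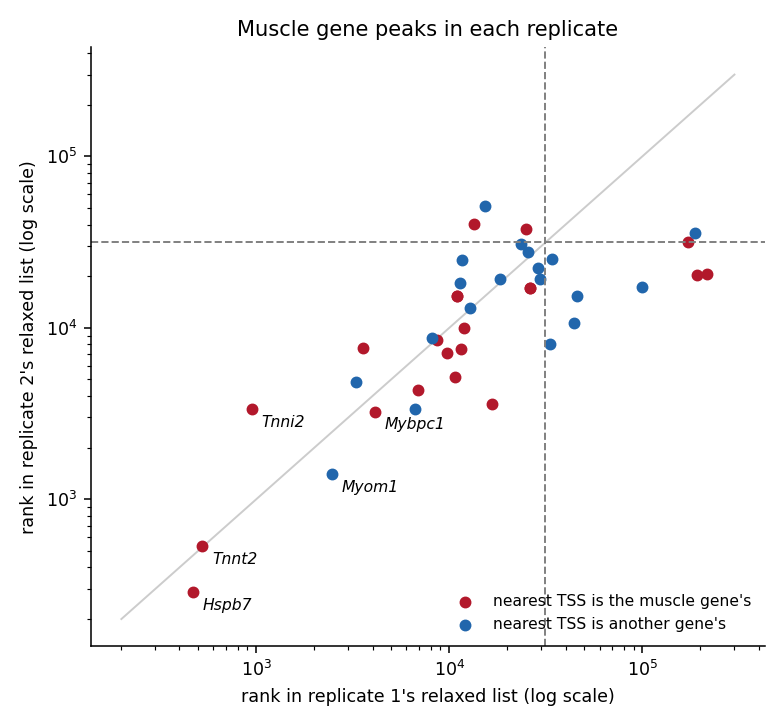
Rank of the interval matching each of the 40 muscle gene peaks in the relaxed list of replicate 1 (horizontal) and replicate 2 (vertical), log scales, rank 1 strongest, with the grey line at equal rank. Dashed lines mark rank 31497; 28 peaks lie below it in both replicates, and 4 lie at rank 171927 or beyond in replicate 1.

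The 21 genes without an optimal peak were Myh1, Myh3, Myh4, Myh6, Myh7, Myh8, Myl1, Myl2, Myl3, Myl7, Acta1, Actc1, Tpm2, Tnni3, Actn2, Actn3, Myom2, Mybpc3, Des, Ldb3 and Mb. Each held some interval of the pooled relaxed list, which contains background by design, but the best rank ran from 27228 (Myh3) to 268630 (Myh7), with a median of 53758. In the strongest 31497 intervals of a single replicate, 8 of them had an interval, and Ldb3, a Z disc PDZ-LIM protein gene, had one in both. The nearest optimal summit was within 20 kb of 4 of these genes and within 50 kb of 14, and for 7 it was further away, at Actc1 148585 bp.

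Sequence at the peaks held few MEF2 elements. Of the 24 mm9 peaks at muscle genes, 1 (4.17%, interval 0.739 to 20.2%) had the element within 50 bp of its summit, against 7.13% of all mm9 peaks. With 24 peaks these shares cannot be told apart. The peak was the intronic one of Neb, whose element was centred 45 bp from the summit and had the symmetric form CTA, 4 bases of A or T, TAG. The Tnni2 element was centred 79 bp from the summit of its peak. Neb and Tnni2 thus gave 2 of 24 peaks with a whole element within 100 bp, against 8.89% of all. The Mybpc2 element, centred 100 bp from its summit, reached past that window, and with it 3 of 24 peaks held an element anywhere in the interval, against 10.3%. The match had to be exact, so weaker forms were not counted, and a window with no match says only that these letters are not in it.

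The Tnnt2 and Hspb7 peaks had an element nearby but outside the interval. At Tnnt2 it was TTAATTTTAG at chr1:137740826-137740835, 142 bp from the summit and 6 bp beyond the edge of the interval. The Hspb7 locus had CTAAATATAG at chr4:140982255-140982264, 465 bp from the summit and 325 bp beyond the edge. None of the 24 mm9 summits lay in an exon of the muscle gene it counted for: 14 were in an intron of that gene and 10 outside it. Exons of other genes were not checked. The median GC content of the window within 50 bp of the summit was 51.0%, against 49.5% for all mm9 peaks, with a range of 35.6 to 75.2%.

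Motifs of other factors in the same windows were near the background in most cases. The AP-1 motif TGANTCA was in 3 of 24 windows (12.5%), against 12.2% of all; the E-box CANNTG was in 11 (45.8%), against 46.2%. The PU.1 core GAGGAA was in 4 (16.7%), against 14.3%, and the RUNX motif TGTGGT in 3 (12.5%), against 13.3%. NF-kB was in 2 (8.33%), against 8.37%, the IRF repeat (GAAA, any 2 bases, GAAA) in 1 (4.17%), against 3.6%, and the serum response factor CArG box in 0, against 0.879%. The octamer ATTTGCAT, bound by POU factors of B cells, was in 4 windows (16.7%), against 3.12% of all mm9 peaks. Those 4 were the strongest Myl4 peak, a Myog peak and 2 neighbouring peaks over Spib that counted for Mybpc2, and no test was made. All motifs were sought on both strands, and a match is a description of letters and not of a bound factor.

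Summit windows are shown for 5 strong peaks that hold such a motif other than the E-box, on the plus strand of mm9. Capitals mark the motifs just named except the E-box. The Tnni2 window, stronger at mm9 rank 2141 than those of Mybpc1, Myl4 and Mybpc2, held only an E-box and is left out. Hspb7 (chr4:140981745-140981845) holds AP-1, Tnnt2 (chr1:137740639-137740739) holds NF-kB, and Mybpc1 (chr10:88047317-88047417) holds the IRF repeat on the minus strand. In the Myl4 window (chr11:104444105-104444205) the capitals mark the octamer, the PU.1 core on the minus strand and RUNX. In the Mybpc2 window over Spib (chr7:51786772-51786872) they mark the octamer.
Hspb7: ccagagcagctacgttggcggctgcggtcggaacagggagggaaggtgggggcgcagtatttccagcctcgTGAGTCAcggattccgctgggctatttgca
Tnnt2: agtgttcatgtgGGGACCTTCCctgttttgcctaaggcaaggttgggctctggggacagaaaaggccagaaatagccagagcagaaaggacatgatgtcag
Mybpc1: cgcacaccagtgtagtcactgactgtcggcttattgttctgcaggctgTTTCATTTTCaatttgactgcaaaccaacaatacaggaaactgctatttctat
Myl4: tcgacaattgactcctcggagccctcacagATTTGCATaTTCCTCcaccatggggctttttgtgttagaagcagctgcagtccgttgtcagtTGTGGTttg
Mybpc2: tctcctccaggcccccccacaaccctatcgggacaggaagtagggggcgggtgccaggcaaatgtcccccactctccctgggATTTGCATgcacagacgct

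Seen from the elements, nearly all were without a peak, near muscle genes as near all protein-coding genes. The share in a peak is thus no result about muscle genes. Within 10 kb of the start sites of the 40 genes the mm9 sequence held 207 elements, at 37 genes, with a median of 2.5 per gene and 33 at most (Ttn, which also has many annotated start sites). Of these, 2 (0.966%) lay in an mm9 peak, the Tnni2 and Mybpc2 elements shown above, against 0.661% of 93442 elements near all protein-coding start sites and 0.281% of the 657540 elements in the genome. Within 1 kb there were 36 elements at 19 genes, of which the Tnni2 element alone was in a peak. For 10 of the 19 genes with an element that close, no peak of any kind was listed on mm9 or in the optimal set. Over all genes 50.2% had an optimal peak. The nearest mm9 summit was 59789 bp from the Myom2 element, 20810 bp from that of Mybpc3, 42833 bp from that of Myl2 and 28150 bp from the Ckm enhancer element.

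**Figure D4:**
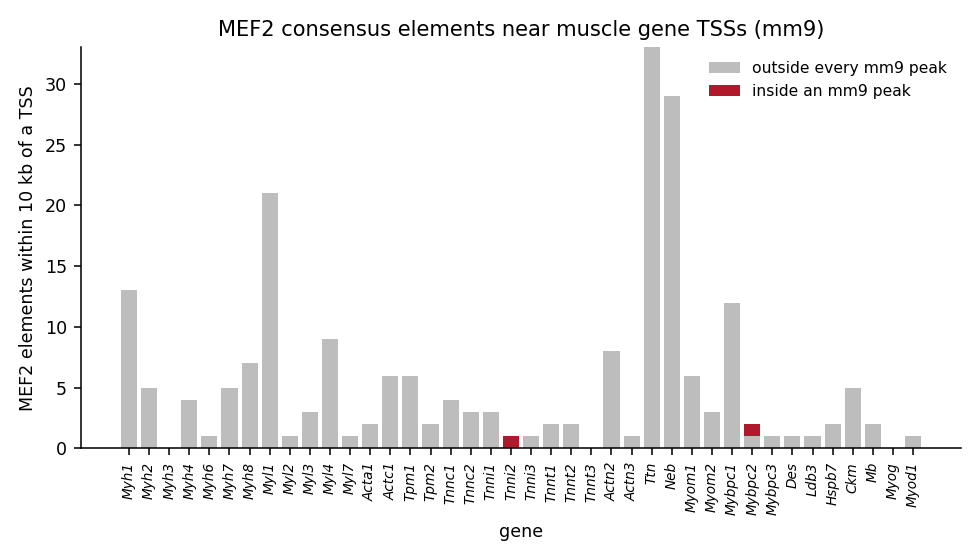
Number of MEF2 elements within 10 kb of any annotated start site on mm9 (vertical) for each of the 40 muscle genes (horizontal), split into those inside an mm9 peak (red) and outside (grey). Of 207 elements 2 (0.966%) are inside a peak, at Tnni2 and Mybpc2, against 0.661% of elements near all protein-coding start sites. The high bars of Ttn, Neb and Myl1 come with no element in a peak.

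Promoters from RefSeq (GRCm38.p6, 250 bases before to 50 after a start) were held for 34 of the 40 genes. The element was in 5 of them (14.7%), against 3.27% of 17492 genes. Of those 5 genes, 4 had no peak (Myh1, Myh4, Myh8 and Mybpc3), while 50.2% of all genes had one, and the difference was not tested. The fast and perinatal myosins Myh1, Myh4 and Myh8, which stand side by side on chromosome 11, share the same letters, TTATTTATAG, at 211, 182 and 99 bases before the start. Ttn was the fifth, and its peaks lay 161886 and 176131 bp from that start. With the shorter core of TA, 4 bases of A or T, and TA, the count was 10 of 34 (29.4%), against 9.26% of all genes. Of the 10, 5 had a peak and 5 had none, which is near the 50.2% of all genes with a peak. Myog has such a core, TATATTTA, 63 bases before its start, in the region of its known MEF2 site. With the base on each side it reads CTATATTTAT, and the last T keeps it from matching the full form. The Myog peaks were 4321 and 6640 bp upstream, and no exact match to the full form lay within 10 kb.

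Other muscle genes from a second list were compared in the same way. Of 47 genes for excitation, calcium handling, metabolism and muscle differentiation, 21 had an optimal peak (44.7%, interval 31.4 to 58.8%), against 50.2% of all genes. The strongest were at Ryr1, the calcium release channel (signal 114, nearest Map4k1), Cacna1s, its voltage sensor (111, nearest Kif21b), and the muscle RING finger genes Trim54 (97.8) and Trim63 (73.0), both nearest to their own TSS. Nppa and Nppb, the natriuretic peptide genes, and Casq2, Csrp3 and Tcap had none. Like the contractile genes, this list was near the background.

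Relatives of the contractile genes that are used outside striated muscle had a peak in 19 of 26 cases (73.1%, interval 53.9 to 86.3%), against 50.2% of all genes; the list includes smooth muscle genes. The strongest were at the non-muscle myosin heavy chains Myh10 (238) and Myh9 (185), at Myl12a and Myl12b, which share the peak of 128 that also counted for Myom1, and at the capping protein gene Capzb (85.4). Without a peak were Flna, Myl9 and the smooth muscle genes Acta2, Actg2, Myh11, Tagln and Lmod1. The difference between these relatives and the striated genes was not tested, since the lists were put together with earlier results of these data known.

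**Figure D5:**
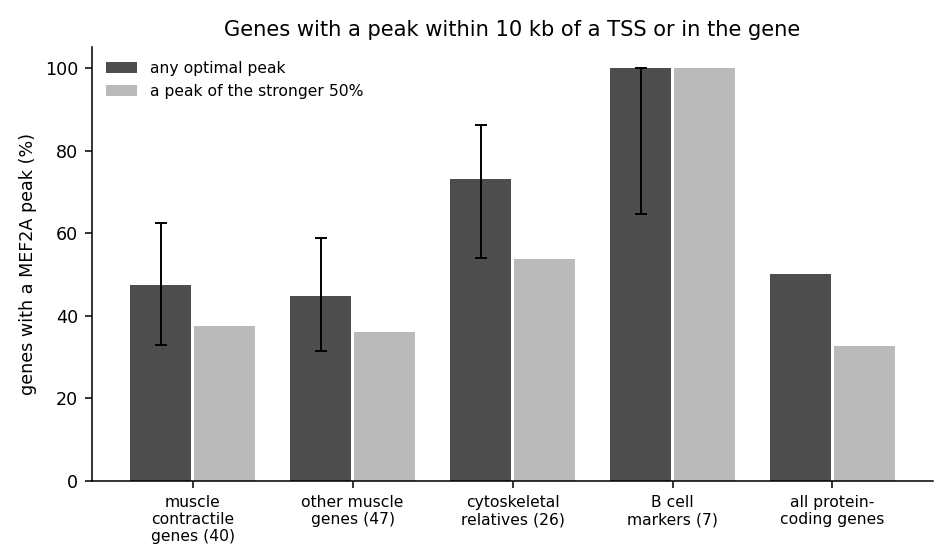
Share of genes (vertical, percent) with an optimal MEF2A peak within 10 kb of a TSS or in the gene (dark bars) and with a peak of the stronger 50% (light bars), for the 40 muscle contractile genes, 3 other lists and all protein-coding genes; whiskers are 95% Wilson intervals and cover counting error over genes only. The contractile genes stand at 47.5% and all genes at 50.2%.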

How the data were processed

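MEF2A ChIP-seq peak lists of 2 biological replicates (1 group) were used: a relaxed list per replicate, a pooled relaxed list, and optimal and conservative IDR sets on mm10, and 1 list on mm9. Peaks were thus called by the authors per sample and on pooled samples, with a control per the file headers, except that none is named for mm9. The control reads were not used here. The aligner, the peak caller and their settings were not given in the sources used here, nor was a sequencing depth. The signal value (column 7) is as deposited by the authors and was compared only by rank within a list. The deposited score of the nominal q-value column broke ties. Each relaxed list holds 300000 intervals, which is no measure of depth; depth is unknown.

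Python 3.11.15, numpy 2.4.6, pandas 2.3.3 and scipy 1.17.1 were used, with figures from matplotlib 3.10.9. Coordinates are 1-based. mm10 genes came from RefSeq GRCm38.p6; strand and start sites were had for 21486 of 21887 protein-coding genes (98.2%), 17492 from the RefSeq promoter table and 3994 from GENCODE vM1. mm9 genes were those of GENCODE vM1 (46006 start sites). No coordinates were converted, and builds were joined by symbol. Motifs were read on mm9 only, within 50 bp of the summit, since no mm10 genome was used here; motif search and peak assignment were tested on simulated data.

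The 40 genes and the other lists were chosen with earlier results of these data known, so no enrichment test was made and shares stand beside those of all genes. With 1 group there is no test across samples. Values are given in full for genes whose strongest peak was in the stronger 50% or whose mm9 peak held the element, with fewer values for the rest. Other genes named are those with the nearest TSS to a muscle gene's peak, list members, and Lsp1, chosen after its values were seen. Alternatives tried were other peak sets, windows, overlaps, element forms and each replicate alone. Of the B cell markers listed, 1 more is not reported here, for a reason unrelated to its value.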

Additional observations from a re-analysis of the deposited data

How the results depend on the processing

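Of 52 recomputed values, 38 stayed within 1.5 times the reported one and 14 did not. Genes with an optimal peak went up to 33 of 40 with a 50 kb window (68.6% of all genes), and the mm9 count became 26 with 50 kb (55.2%) and 8 with the stronger 50% of mm9 peaks (18.0%). The number of muscle gene peaks was 22 with the stronger 50% of peaks, 23 with a 1 kb window and 122 with 50 kb. In the top 10000 intervals of both replicates 12 peaks matched (23.6% of all), and of the stronger 50% of peaks 13 of 22 were nearest to their own gene. The element was in 2 of 24 mm9 peaks within 100 bp, 3 in the whole interval, 2 with the core form, and 0 of the 10 stronger ones (9.86% of all). The other muscle genes with a peak were 13 of 43 on the separate mm9 list (30.2%, against 33.4% of all genes) and 35 of 47 with 50 kb (against 68.6%). Wider or narrower windows and cutoffs change what is counted by construction; for the mm9 list the cause was not tested. From a single replicate's strongest intervals, 22 to 23 of 40 contractile genes had a peak, with 45 to 46 peaks. Among other muscle genes it was 20 to 22 of 47, and among cytoskeletal relatives 17 to 20 of 26. The share of all genes was 51.2 to 51.3%. No paired analysis was possible because there was 1 group. Peak lists give no read depth, so an absent peak is not shown to be absent binding.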
